A study of Rattus norvegicus with 6 samples.

Results

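The expression of 10 genes of the oncofetal and insulin-like growth factor (IGF) system was examined in the injured rat sciatic nerve. The genes were Hmga1, Hmga2, Igf2bp1, Igf2bp2, Igf2bp3, Lin28b, Igf1, Igf2, Igf1r and Igf2r, and each symbol matched 1 row of the 30957 genes in the expression table. Hmga2 had been picked because it rose from 0 counts after the crush injury, so its values are described without a test. The other genes were taken as its relatives and partners in the same pathway.

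Sciatic nerve RNA of Sprague-Dawley rats was sequenced in 3 groups, control, D4 and D7, with 2 rats per group and 1 library per rat, named a and b. The paper describes the control samples as normal sciatic nerve and the D4 and D7 samples as lesional tissue. The rats were 1 month old, and the D4 and D7 groups were collected 4 and 7 days after the nerve had been crushed with hemostatic forceps. The control rats are labelled as normal, while the methods describe an operation without the clamp, and the crush was done under anaesthesia with chloral hydrate. The labels and methods name no genetic change and no other drug. Gene fragments per library numbered between 18727255 and 25350886. All 8 Schwann cell markers examined were counted in every library. Of the cell type marker lists examined, that of fat tissue differed most between libraries of 1 group, with a summed level of 5.21 CPM in D7 a and 394 CPM in D7 b, where CPM are counts scaled by library total and TMM factor. Because bulk tissue was sequenced, more RNA per cell and more cells of a given type cannot be told apart in any value below.

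HMGA1 and HMGA2 are small proteins with AT-hooks that bind the minor groove of DNA and shape chromatin. LIN28B blocks the maturation of the let-7 microRNAs, and let-7 represses the mRNAs of HMGA2, of the IGF2BP family, of LIN28B itself and of IGF1R. The 3 IGF2BP proteins bind mRNAs, IGF2 among them, and affect their stability, transport and translation. Most of these genes are active in embryos, are shut or turned low in most adult tissues and return in many tumours, hence the term oncofetal. Igf2bp2 was not shut in the control nerve here, with 370 and 293 counts. IGF1 and IGF2 signal through the receptor IGF1R, while IGF2R, also known as the mannose 6-phosphate receptor, takes up IGF2 for degradation and sorts lysosomal enzymes. IGF1 supports the survival of Schwann cells and the growth of axons in peripheral nerve.

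The promoters of the 4 oncofetal genes with the clearest counts after injury are shown first, since these genes moved in the same direction and their start regions differ in composition. Each sequence is taken from RefSeq (build GRCr8), runs 5′ to 3′ on the strand of the gene, and covers 300 bases around the start site. Capitals mark every match, on either strand, to 5 short motifs of promoters. The first of them was the TATA box, written as TATAAA, at which the transcription machinery can assemble. The CCAAT box was searched by its own letters, which bind the factor NF-Y. The GC box, a binding motif of the SP family, was searched as GGGCGG, and a match may touch or overlap its neighbour. The E-box, a motif of MYC and related factors, was searched in its palindromic form CACGTG. The AP-1 site, a motif of the JUN and FOS factors, was searched as TGANTCA with N for any base.
Hmga2, chr7:57880292-57880591, minus strand: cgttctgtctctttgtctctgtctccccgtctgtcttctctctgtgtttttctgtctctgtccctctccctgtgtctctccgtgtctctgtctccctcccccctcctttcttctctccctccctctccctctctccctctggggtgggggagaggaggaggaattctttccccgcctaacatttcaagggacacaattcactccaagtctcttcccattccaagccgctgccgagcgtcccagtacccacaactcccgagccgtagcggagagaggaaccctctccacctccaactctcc
Hmga1, chr20:5613258-5613557, plus strand: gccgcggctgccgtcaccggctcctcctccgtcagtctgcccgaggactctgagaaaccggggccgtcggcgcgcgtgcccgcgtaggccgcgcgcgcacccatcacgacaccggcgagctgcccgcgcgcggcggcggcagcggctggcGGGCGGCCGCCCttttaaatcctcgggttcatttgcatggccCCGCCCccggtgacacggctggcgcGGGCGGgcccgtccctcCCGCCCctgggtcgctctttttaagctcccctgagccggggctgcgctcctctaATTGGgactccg
Igf2bp2, chr11:92378658-92378957, plus strand: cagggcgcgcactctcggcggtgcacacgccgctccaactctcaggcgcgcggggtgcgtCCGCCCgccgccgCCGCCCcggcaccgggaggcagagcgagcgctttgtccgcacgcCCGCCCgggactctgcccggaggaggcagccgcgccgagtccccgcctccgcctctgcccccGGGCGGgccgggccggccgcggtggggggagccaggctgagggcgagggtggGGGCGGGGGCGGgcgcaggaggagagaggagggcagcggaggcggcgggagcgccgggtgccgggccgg
Igf2bp3, chr4:79525681-79525980, minus strand: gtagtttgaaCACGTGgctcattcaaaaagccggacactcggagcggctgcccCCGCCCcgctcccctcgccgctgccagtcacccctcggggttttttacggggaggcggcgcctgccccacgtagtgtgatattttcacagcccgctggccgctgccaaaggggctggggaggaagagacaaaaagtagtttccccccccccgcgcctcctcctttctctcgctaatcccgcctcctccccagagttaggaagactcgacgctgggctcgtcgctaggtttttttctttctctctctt

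The Hmga2 window held no match to any of these motifs and was made of 70.0% pyrimidines on the gene strand, a higher share than in 99.7% of the 33469 promoters of the table, whose median was 49.7%. The Hmga1 window held 5 GC boxes, a pair of which touch each other, and 1 CCAAT box read on the other strand, with 74.0% G and C. The Igf2bp2 window held 6 GC boxes and 82.3% G and C, and the Igf2bp3 window 1 GC box and 1 E-box. Promoter windows were found for 9 of the 10 genes, Igf2bp1 being the exception. A GC box occurred in 6 of these 9 genes and in 33.1% of all promoters, and an E-box in 3 of 9 and in 6.42%. A CCAAT box occurred in 1 of 9 against 37.5%, while 14.2% of all promoters had a TATA box and 7.33% an AP-1 site, neither of which was found in the 9 genes. Such matches are letters in a window and were not tested as binding sites.

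The let-7 microRNAs, the shared repressors of several of these genes, were not measured in these libraries. Their mature sequences are shown because known targets of let-7 are described further on. Those targets were a fixed list of gene symbols, and no transcript was searched for the seed. RefSeq (build GRCr8) lists 8 rat let-7 sequences from the 5′ arm, and all 8 share the seed, bases 2 to 8, written in capitals. They differ from each other only outside it, as the following members show.
rno-let-7a-5p: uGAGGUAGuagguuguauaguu
rno-let-7d-5p: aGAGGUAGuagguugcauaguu
rno-let-7e-5p: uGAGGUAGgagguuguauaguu

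The levels of the 10 genes were first set side by side in FPKM, the deposited unit that scales fragments by gene length and library total. In the control nerve Igf2r was the most abundant, at 36.8 ± 7.34 FPKM (SD, n = 2 here and for each mean below). Igf2 (21.2 ± 6.39), Igf1r (17.9 ± 1.69) and Igf1 (17.6 ± 1.77) followed, and the values of these 3 genes overlapped. Igf2bp2 (4.45 ± 0.161) and Hmga1 (4.27 ± 0.0188) lay below them, Igf2bp3 reached 0.287 ± 0.159, Lin28b had 1 count, and Hmga2 and Igf2bp1 were at 0 in both control libraries. Thus the control nerve held the ligands and receptors of the IGF system well above the oncofetal genes.

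At D4 this order had changed. Hmga1 reached 51.3 ± 8.20 FPKM and overlapped with Igf2r at 55.9 ± 8.11. Hmga2, at 16.4 ± 0.982, overlapped with Igf2bp2 at 16.9 ± 0.800, and both lay below Igf1 (26.4 ± 1.88), Igf1r (23.4 ± 1.64) and Igf2 (22.6 ± 0.186), of which the last 2 overlapped. At D7 Igf2r was at 48.7 ± 1.34, Hmga1 at 33.5 ± 2.48, Igf2bp2 at 18.1 ± 2.35 and Hmga2 at 4.17 ± 1.51 FPKM. Igf2 could not be placed at D7, since its libraries stood at 48.1 and 12.4. The FPKM of Hmga1 rests on a counted length of 324 bases, the shortest of the 10 genes, as computed from its counts and FPKM.

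**Figure D1:**
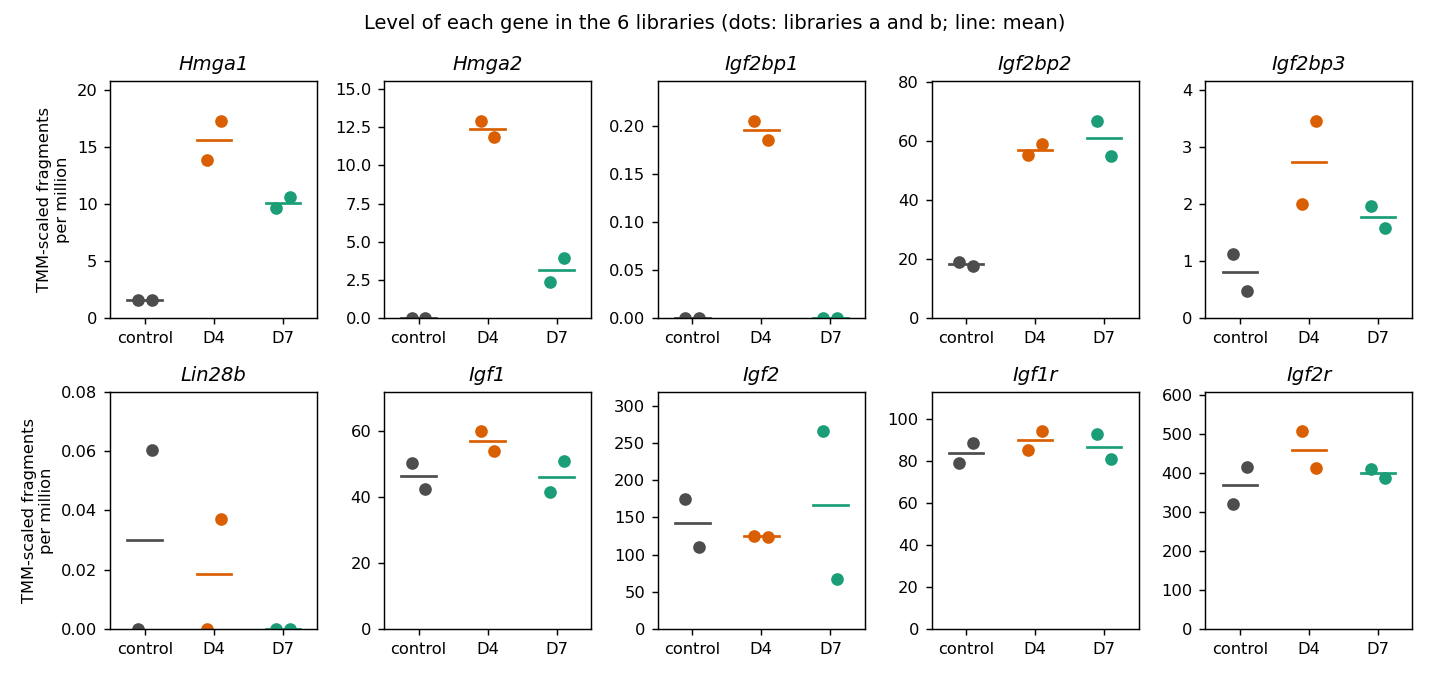
Level of each of the 10 genes in each library, as TMM-scaled CPM (vertical axes start at 0 and differ between genes). Dots are the libraries a and b of control, D4 and D7, and lines are group means. Hmga1, Hmga2 and Igf2bp2 have every injured library above both control libraries, whereas Igf2 spreads from 67.5 to 266 within D7.

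Differences were tested on the counts with the quasi-likelihood test of edgeR, and p-values were adjusted by the Benjamini-Hochberg method over the 15195 genes that passed the low-count filter. A gene was called upregulated or downregulated at an adjusted p-value under 0.05 and a change of at least 2-fold. The filter kept 8 of the 10 genes, while Igf2bp1 and Lin28b had too few counts. Hmga2 and Igf2bp3 passed through their injured libraries alone, so that a high count there was needed for them to be kept. Of the 7 genes other than Hmga2, 3 were upregulated at D4 (Hmga1, Igf2bp2 and Igf2bp3) and the other 4 were not called, while 21.9% of all tested genes were called at D4, 11.2% as upregulated and 10.7% as downregulated. At D7, 2 of the 7 were upregulated (Hmga1 and Igf2bp2) and 5 were not called, against 18.8% of all genes called, 9.83% upregulated and 9.02% downregulated. Of the 6 genes that reached the filter level in both control libraries, 2 were upregulated at each day, and their log2 fold changes had medians of 0.31 (D4) and 0.17 (D7), beside −0.04 and 0.01 over all tested genes. Between D4 and D7, 0 of the 7 were called by edgeR, with 1 at an unadjusted p-value under 0.05 and 0 called by DESeq2, against 2.18% of all tested genes called, 1.68% higher and 0.494% lower. Both comparisons share the same control libraries.

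The HMGA genes showed the largest changes. Hmga1 (ENSRNOG00000000488), on chromosome 20 from 7136007 to 7138980 of the build Rnor_6.0 used by the authors, had 31 and 26 counts in the control libraries, 337 and 469 at D4, and 206 and 214 at D7. The 3 groups did not overlap, with D4 highest and D7 in between. The log2 fold change was 3.29 at D4 (standard error 0.21, adjusted p = 0.000196 by edgeR) and 2.67 at D7 (standard error 0.21, adjusted p = 0.000545 by the same test of edgeR), which are changes of 9.81-fold and 6.38-fold. The step from D4 to D7 was not called, with a log2 fold change of −0.62 and a 95% interval from −1.05 to −0.19 (adjusted p = 0.101 by edgeR). The call of Hmga1 was kept at both days without any 1 of the 6 libraries.

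Hmga2 (ENSRNOG00000042460, chromosome 7 from 65159944 to 65275408, Rnor_6.0), for which the promoter without motif matches is shown above, had 0 counts in both control libraries, 315 and 321 at D4, and 50 and 79 at D7. Both injured groups lay above control, and the D7 libraries lay below the D4 libraries. Set against 3 counts per control library, the highest count taken as compatible with a reading of 0, the D7 level was at least 18.7-fold higher than control and the D4 level at least 73.9-fold. The mean scaled level of Hmga2 at D7 was 0.252 times that at D4. These are the libraries for whose counts Hmga2 had been picked, so no test is given.

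The balance of the family followed from these values. Hmga1 stood above Hmga2 in every injured library, by 2.66 and 3.63 times in FPKM at D4 a and b and by 10.2 and 6.73 times at D7 a and b. FPKM divides by the counted length, which was 324 bases for Hmga1 and 805 for Hmga2. In CPM, without this division, Hmga1 stood at 13.8 and 17.3 and Hmga2 at 12.9 and 11.9 at D4 a and b. At D7 a and b these levels were 9.67 and 10.6 against 2.35 and 3.91. The ratio at D4 thus depended largely on the counted lengths. A further row of the table, RGD1564836 on chromosome X, is described as similar to HMGA1b, and 2 fragments in D4 a were all its counts. Fragments that match both Hmga1 and such a copy may have been counted at either, so the split between them is uncertain.

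Summed markers of dividing cells, of injured Schwann cells and of macrophages were lowest in control and highest at D4, as the HMGA genes were. For comparison, a rise was called for 11.2% of all tested genes at D4 and for 9.83% at D7. A fall was called for 10.7% of them at the earlier day and for 9.02% at the later day. The 6 markers of cycling cells, such as Mki67 and Top2a, were upregulated at both days, and their summed level was 42.7 and 81.5 CPM in control, 948 and 1089 at D4, and 619 and 665 at D7. Of 7 repair Schwann cell markers, 4 were upregulated at each day, among them Gdnf. Without Gdnf and Olig1, which passed the filter through injured libraries alone, 3 of 5 were upregulated at each day. The summed level of the 7 went from 194 and 199 in control to 2473 and 2634 at D4 and 1672 and 1572 at D7. Macrophage markers rose in 8 of 8 genes at D4 and 7 of 8 at D7, with sums of 516 to 543 in control, 2030 to 2046 at D4 and 1446 to 1625 at D7. The sum over the 6 fibroblast markers was 55040 and 59737 in control, 33608 to 37317 at D4 and 28912 to 31903 at D7. Of them 0 were called at D4, and at D7 0 were upregulated and 1 was downregulated. The 8 Schwann cell markers, which include myelin genes, summed to 86315 and 59190 CPM in control, 5774 and 6423 at D4, and 18289 and 12154 at D7, with 5 downregulated and 1 upregulated at D4 and 3 and 1 at D7. Endothelial markers summed to 789 and 1417 in control and to between 254 and 490 in the injured libraries. Perineurial markers summed to 2772 and 2254 in control and to between 939 and 1522 after injury. Of 4 tested endothelial markers 2 were downregulated at D4 and 4 at D7, and of 3 tested perineurial markers 2 at each day. The 5 T cell markers summed to 33.1 and 30.6 in control and to between 88.5 and 101 after injury. Of these markers 3 passed the filter through injured libraries alone. Of the 2 others, 1 was upregulated and 1 downregulated at D4, and 1 was upregulated at D7. The part of all these markers in the changes of the HMGA genes was not tested.

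Genes whose profile over the 6 libraries was closest to that of a changed gene were then listed, by the Euclidean distance between gene-centred log2 levels. The closest to Hmga2 was Gdnf, a neurotrophic factor released by injured Schwann cells, at a distance of 0.904. Its counts were 3 and 2 in control, 504 and 722 at D4, and 103 and 98 at D7. Next came Kcng1, a modulatory subunit of potassium channels (0.965), Ngfr, the low-affinity neurotrophin receptor p75 (1.31), the unnamed gene AABR07024139.1 (1.41) and Ucn2, a peptide of the corticotropin-releasing factor family (1.43). For Hmga1 the closest profiles were those of Bub1, a mitotic checkpoint kinase (0.187), St14, which encodes the protease matriptase (0.249), and Arhgap22, a regulator of small GTPases (0.281). The 6 libraries form 3 groups, so that close profiles share mainly their group means.

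Transcripts in the separate lncRNA table overlap both HMGA genes. Inside Hmga2 lies the newly predicted MSTRG.25154.3, on chromosome 7 from 65244583 to 65259113 and 14437 bases long, with 7 and 4 counts in control, 5726 and 7780 at D4, and 1185 and 2111 at D7. Per library it held 18.2, 24.2, 23.7 and 26.7 times the counts of the Hmga2 row in D4 a, D4 b, D7 a and D7 b, next to a length 17.9 times as great. Coverage per kilobase was 391 and 399 fragments for Hmga2 and 397 and 539 for the lncRNA at D4. At D7 it was 62.1 and 98.1 against 82.1 and 146. The lncRNA thus had 1.01 and 1.35 times the coverage of the gene row at D4 a and b. At D7 a and b it had 1.32 and 1.49 times. Both D7 libraries lay below both D4 libraries in either row. Whether the strand was used in the counting is not given in the sources used here, so that RNA of the gene and of the lncRNA could not be told apart.

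**Figure D2:**
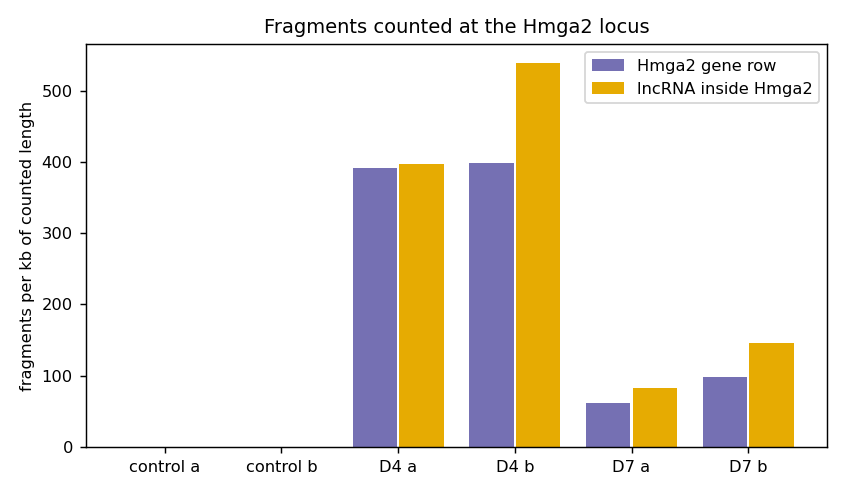
Fragments per kilobase of counted length at the Hmga2 locus in each library, for the Hmga2 gene row (purple) and for the lncRNA that lies inside the gene (yellow). Control bars are at 0 for the gene and below 0.5 for the lncRNA, and in every injured library the lncRNA bar is as high as the gene bar or higher.

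At the Hmga1 locus 9 NONCODE transcripts overlapped the gene, and all 9 carry names derived from Hmga1. How fragments were split between these rows and the gene row is not given in the sources used here. A change of these transcripts could therefore not be told apart from that of the Hmga1 gene row. Outside Hmga2, 13 lncRNAs at the loci of the 10 genes were tested, of which 8 passed the filter through injured libraries alone. Of the 5 that reached the filter level in both control libraries, 1 was upregulated at each day, while 10.1% of all tested lncRNAs were called at D4 (5.19% upregulated and 4.87% downregulated) and 5.79% at D7 (3.00% and 2.79%). This was NONRATT017192.2 of the Hmga1 locus, with 24 and 18 counts in control, 154 and 356 at D4, and 155 and 95 at D7 and log2 fold changes of 3.41 (adjusted p = 0.0135 by edgeR) and 2.47 (adjusted p = 0.0410). Of the 8 others the leading ones are given by their counts, without a test. NONRATT017195.2 had 8 counts in each control library, 94 and 218 at D4, and 85 and 49 at D7. NONRATT017193.2 had 4 and 6 counts in control, 61 and 74 at D4, and 33 and 47 at D7. In both of these transcripts of the Hmga1 locus all injured libraries lay above control. NONRATT017189.2 and NONRATT017190.2 were picked after their values had been seen, since both had 0 counts in control, with 17 to 31 at D4 and 6 to 8 at D7. With the 8 included, 6 of 13 were called at D4 and 4 at D7, all at the Hmga1 locus, and these numbers were unstable, falling to between 1 and 4 at D4 and to 0 or 1 at D7 when any 1 of the 6 libraries was left out. Between the days, 0 of the 13 were called by edgeR, with 4 at an unadjusted p-value under 0.05, and 0 by DESeq2, beside 0.249% of all lncRNAs called, 0.142% higher and 0.107% lower.

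Counts at the Hmga1 locus were divided unevenly between its transcripts. NONRATT017194.2 had 1628 counts in D4 a but 23 in D4 b, and 8 in D7 a but 779 in D7 b, beside 2 in each control library. It took 81.0% of the lncRNA counts of the locus in D4 a and 2.87% in D4 b, and it was not called. The Hmga1 gene row itself was even within each group. Summed over the gene and its 9 transcripts, the locus had 77 and 66 counts in control, 2348 and 1271 at D4, and 541 and 1251 at D7, so every injured library stayed above both control libraries. At the loci of the other genes, Igf1 and Igf2 had 2 overlapping lncRNAs each, Igf1r 1 and Igf2r 4, and 0 of the 6 that could be tested were called by edgeR, with unadjusted p-values under 0.05 for 1 at D4 and 2 at D7, and 0 by DESeq2.

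Among the IGF2BP genes, Igf2bp2 made up nearly all of the family. Its share of the summed FPKM of the 3 genes was between 91.6% and 96.1% in each library, before and after injury. Igf2bp2 (ENSRNOG00000025946, chromosome 11 from 82466071 to 82621079) had 370 and 293 counts in control, 1346 and 1596 at D4, and 1428 and 1112 at D7. Both injured groups lay above control and overlapped with each other. The log2 fold change was 1.64 at D4 (standard error 0.13, adjusted p = 0.000338 by edgeR) and 1.73 at D7 (standard error 0.13, adjusted p = 0.000487), without a call between the days (0.10, 95% interval −0.20 to 0.39, adjusted p = 0.677). Its mean scaled level at D7 was 1.07 times that at D4, while for Hmga1 it was 0.650 times and for Hmga2 0.252 times.

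Igf2bp3 (ENSRNOG00000009052, chromosome 4 from 78746547 to 78879294) was far less abundant. It had 22 and 8 counts in control, 49 and 94 at D4, and 42 and 32 at D7, and all injured libraries lay above both control libraries. The log2 fold change was 1.74 at D4 (standard error 0.50), which met the thresholds of a call. It was 1.11 at D7 (standard error 0.51), which was not called. As Igf2bp3 was kept by its injured libraries, no p-value is given for it. The D4 call rested on few counts. With no low-count filter the log2 fold change was 1.75, but this refit of the same counts is no separate support. The call was lost without control b (1.27), without D4 a (2.08) and without D4 b (1.29).

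Igf2bp1 and Lin28b stayed near 0. Igf2bp1 (chromosome 10 from 83780203 to 83822996) had 5 counts in each D4 library and 0 in the control and D7 libraries, which makes it at least 1.16-fold higher at D4 than a control level of 3 counts per library. Lin28b (chromosome 20 from 50486809 to 50564987) had 1 count in control b, 1 in D4 b and 0 elsewhere. Its counts stayed at or below 3 per library in every group, so no difference was detectable at this depth.

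The genes closest in profile to Igf2bp2 were Rcc2, a regulator of chromosome condensation (distance 0.161), Mcph1, a gene of DNA damage response and chromosome condensation (0.169), and Myrf, a transcription factor of myelin genes in the central nervous system (0.177). Those closest to Igf2bp3 were Haus8, a subunit of the spindle augmin complex (0.370), Afmid, an enzyme of tryptophan breakdown (0.423), and the unnamed gene AABR07040782.1 (0.541).

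**Figure D3:**
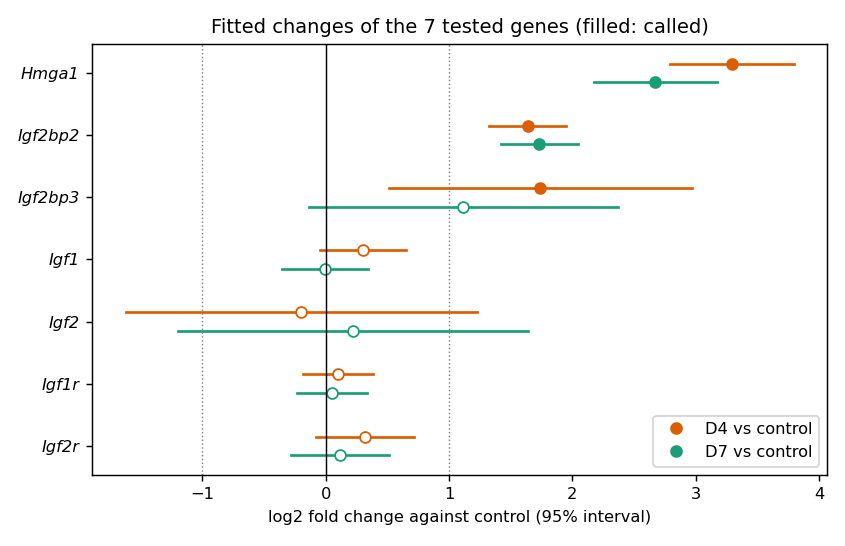
Fitted log2 fold change against control of the 7 tested genes at D4 and D7, with 95% intervals as bars, filled dots for called changes and dotted lines at 2-fold. The intervals of Hmga1 and Igf2bp2 lie above 1 at both days, those of Igf1, Igf1r and Igf2r lie within 2-fold, and that of Igf2 at D7 runs from −1.20 to 1.64.

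The IGF ligands and receptors were not called at either day. Igf1 (chromosome 7 from 28412198 to 28486609) had 976 and 705 counts in control, 1463 and 1467 at D4, and 885 and 1030 at D7. Scaled for library size and composition, D4 lay highest, at 54.2 to 60.0 CPM, and control and D7 overlapped. The log2 fold change was 0.30 at D4 (95% interval −0.05 to 0.65, adjusted p = 0.136 by edgeR) and −0.0048 at D7 (−0.35 to 0.34, adjusted p = 0.982).

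Igf2 (chromosome 1 from 215828102 to 215846911) varied more between rats than between groups. It had 3404 and 1840 counts in control, 3058 and 3352 at D4, and 5669 and 1365 at D7. Scaled, the D7 libraries were 3.94-fold apart, at 266 CPM in a and 67.5 CPM in b, and together they spanned all control and D4 values. This difference between the D7 libraries was larger than that of 97.99% of the 15195 tested genes. The log2 fold change was −0.20 at D4 (95% interval −1.62 to 1.22, adjusted p = 0.802 by edgeR) and 0.22 at D7 (−1.20 to 1.64, adjusted p = 0.788), so that changes of over 2-fold in either direction remain possible. Fat cell markers also differed between the D7 libraries, as given above, in the opposite direction, and their part was not tested.

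Igf1r (chromosome 1 from 128924966 to 129206516) had 1542 and 1469 counts in control, 2086 and 2555 at D4, and 1985 and 1636 at D7. The scaled values of the 3 groups overlapped, between 79.4 and 94.3 CPM. Its log2 fold change was 0.10 at D4 (95% interval −0.18 to 0.38, adjusted p = 0.516 by edgeR) and 0.05 at D7 (−0.23 to 0.34, adjusted p = 0.749). Igf2r (chromosome 1 from 48176106 to 48264477) had 6243 and 6913 counts in control, 12373 and 11168 at D4, and 8735 and 7859 at D7. Scaled control values, 321 and 417 CPM, overlapped with those of D4 (508 and 412) and of D7 (410 and 389), while both D4 libraries lay above both D7 libraries. The step between the days was not called (log2 fold change −0.20, adjusted p = 0.488 by edgeR). Against control Igf2r had log2 fold changes of 0.32 at D4 (−0.08 to 0.71, adjusted p = 0.160 by edgeR) and 0.11 at D7 (−0.28 to 0.51, adjusted p = 0.610). For Igf1, Igf1r and Igf2r, a change of 2-fold or more lay outside the interval at each day.

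The ratio of the ligands therefore turned on Igf2. In FPKM, Igf2 was 1.37 and 1.02 times Igf1 in the control libraries, 0.819 and 0.895 times at D4, and 2.51 and 0.519 times at D7. Igf2r stood above Igf1r in every library, by 1.89 to 2.77 times, without a clear order of the groups.

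The partners of the 10 genes were examined through lists of pathway genes, and for each list all tested members were counted. Where a list's genes are named beyond the 2 largest rises and falls, they were named after their values had been seen. IGF-binding proteins hold IGFs in tissue, and proteases release them. Of 15 genes of this list 12 were tested, with 6 upregulated at D4 and, at D7, 4 upregulated and 2 downregulated. Over all tested genes 11.2% were upregulated at D4, and at D7 9.83% were upregulated and 9.02% downregulated. Without Igfbp2 and Stc2, which passed the filter through injured libraries alone, 5 of 10 were upregulated at D4 and 3 at D7. The median log2 fold change of the list was 0.71 at D4 and 0.03 at D7.

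Both of the largest fitted rises of this list were in the system that cuts IGF-binding proteins. Stc2, an inhibitor of the pappalysin proteases, had 0 and 5 counts in control, 80 and 197 at D4, and 27 and 50 at D7, for log2 fold changes of 5.17 and 3.67. As Stc2 was kept by its injured libraries, no p-value is given for it. Pappa, the protease that cleaves IGFBP4 and IGFBP5, had 54 and 64 counts in control, 660 and 1094 at D4, and 313 and 866 at D7 (3.35 and 3.12, adjusted p = 0.00491 and 0.00802 by edgeR). The proteases Adam12 (2.00 at D4 and 1.43 at D7) and Htra1 (1.38 and 1.24) were also upregulated at both days. Igfbp4 (1.17) and Igfbp5 (1.08) were upregulated at D4.

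Igfbp5 was the 1 gene of the list called between the days. It had 74927 and 92438 counts at D4 and 14713 and 24704 at D7, beside 23990 and 30392 in control. It fell by 1.76 on the log2 scale (standard error 0.31, adjusted p = 0.0390 by edgeR). Of the 12 tested genes, 3 had an unadjusted p-value under 0.05 by edgeR between the days. Over all tested genes 2.18% were called between the days, 1.68% higher and 0.494% lower. At D7 the falls against control were those of Igfbp6, which binds mainly IGF2 (log2 fold change −1.35, adjusted p = 0.00626 by edgeR), and Stc1, a relative of Stc2 (−2.21, adjusted p = 0.0487). Igfbp1 had 0 counts in every library. Igfbp2 and Pappa2 were uneven between libraries of 1 group, with 1 and 88 and with 210 and 2038 control counts, and they were not called.

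In the list of growth hormone, insulin and IGF receptor relays, 11 of 14 genes were tested. At D4, 1 was upregulated and 3 were downregulated, and at D7 1 and 4, where 10.7% of all tested genes were downregulated at D4 and 9.02% at D7. Without normalization factors the D4 counts were 2 and 2 and the D7 counts 1 and 3. The list had median log2 fold changes of −0.57 and −0.76. The 1 rise was that of Socs2, a feedback inhibitor of growth hormone signalling, with 202 and 142 counts in control, 848 and 1039 at D4, and 699 and 787 at D7 (log2 fold changes 1.95 and 1.92, adjusted p = 0.000350 and 0.000618 by edgeR).

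The largest falls among the relays were those of Grb14, an adaptor that inhibits the insulin receptor, and Ghr, the growth hormone receptor. Grb14 had 756 and 552 counts in control, 189 and 225 at D4, and 206 and 218 at D7 (log2 fold changes −2.17 and −1.82, adjusted p = 0.000215 and 0.000545 by edgeR). Ghr had 5329 and 3907 counts in control, 1910 and 1319 at D4, and 795 and 2190 at D7 (−2.00 and −1.81, adjusted p = 0.0201 and 0.0325 by edgeR). Irs1, an adaptor of the insulin and IGF1 receptors, was downregulated at both days (−1.23 and −1.44), and Insr, the insulin receptor, at D7 (−1.01). Its relative Irs2 had log2 fold changes of 0.13 and 0.21, which were not called. Irs4 had 0 counts in every library, and Grb2 was left out because its symbol fits several rows.

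The machinery around LIN28 and let-7 was not called. Of 14 symbols in this list 11 matched a row of the expression table and 10 were tested. By edgeR 0 were called at either day, beside 21.9% of all tested genes at D4 and 18.8% at D7. Unadjusted p-values under 0.05 by edgeR were found for 4 at D4 and 5 at D7. Of these, 4 at each day, Zcchc11, Dicer1, Hnrnpa1 and Khsrp, also had an adjusted p-value under 0.05 and missed only the 2-fold threshold. DESeq2 also called 0. The log2 fold changes ran from −0.88, that of the uridylyl transferase Zcchc11 at D4, to 0.62, that of the splicing factor Hnrnpa1 at D4. Dicer1, which cuts microRNA precursors, had −0.74 at D4 and −0.43 at D7. Lin28a had 3 counts in D4 a and 0 elsewhere, so that both LIN28 genes were close to 0.

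Other known targets of let-7, whose seed is shown above, were next examined. All 16 were tested, and 5 were upregulated at D4 and 3 at D7, with the others not called, against 11.2% and 9.83% of all tested genes upregulated. The list had median log2 fold changes of 0.45 and 0.30. Mycn, a growth regulator of the MYC family, had 20 and 16 counts in control, 80 and 125 at D4, and 133 and 126 at D7 (log2 fold changes 1.98 and 2.64, adjusted p = 0.00269 and 0.00135 by edgeR). Nr6a1, a nuclear receptor of germ cells and embryos, had 63 and 47, 135 and 214, and 153 and 157 counts (1.14 and 1.29, adjusted p = 0.0126 and 0.0100 by edgeR). The cell cycle genes Cdc34 (1.19) and Cdc25a (1.13) were upregulated at D4. Not every target rose, as Ccnd2 had −0.84 and −0.72, which missed the 2-fold threshold. Without D4 b, 3 targets rather than 5 were called at D4.

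**Figure D4:**
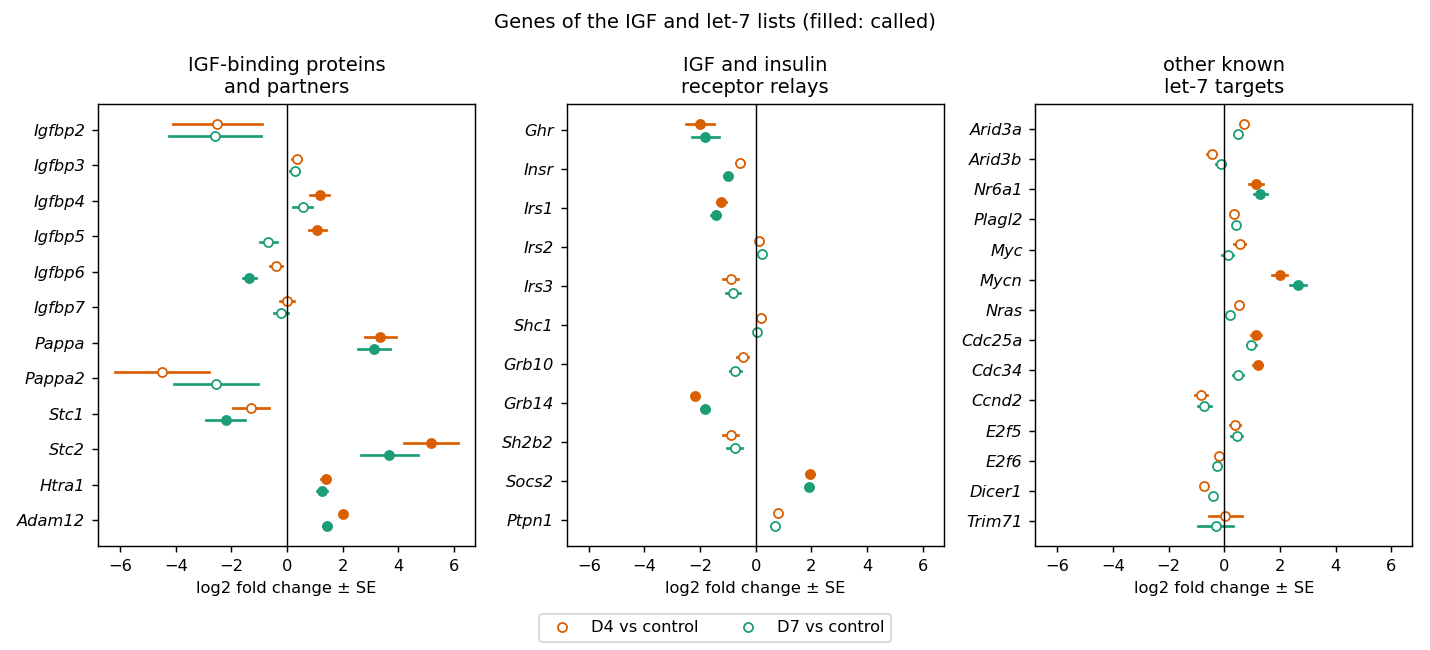
Log2 fold change against control at D4 and D7, with standard errors as bars, for tested genes of the lists of IGF-binding proteins and partners, receptor relays and let-7 targets. Filled dots are called changes. Stc2 and Pappa lie farthest to the right in the left panel, Grb14 and Ghr farthest to the left in the middle panel, and Mycn farthest to the right in the right panel.

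Of 14 fetal and imprinted growth genes, 9 were tested and 1 was called at both days, against 21.9% of all tested genes called at D4 and 18.8% at D7. This gene was Dlk1, a membrane protein of precursor cells that is shut off in most adult tissues. It had 90 and 37 counts in control, 827 and 864 at D4, and 763 and 537 at D7, and every injured library lay above both control libraries. The log2 fold change was 3.24 at D4 and 3.17 at D7 (adjusted p = 0.000778 and 0.00123 by edgeR). The list had medians of −0.07 and 0.16. Afp, the classical oncofetal protein of the liver, had 0 counts in every library, and Gpc3, Peg3, Plagl1, Mest, Ndn, Plag1 and Cdkn1c had log2 fold changes between −0.66 and 0.74 that were not called. Of these, Peg3 (−0.66, adjusted p = 0.0184 by edgeR) and Plag1 (0.74, adjusted p = 0.0370) at D7 missed only the 2-fold threshold. Sall4 had 0 and 3 counts in control, 14 and 13 at D4, and 12 and 10 at D7. It passed the filter through injured libraries alone and was not called either, with log2 fold changes of 2.56 and 2.57. Without control b, 2 genes of the list were called at each day.

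Of 9 transcripts known to be bound by IGF2BP proteins, 8 were tested, and 4 were upregulated at D4 and 3 at D7, beside 11.2% and 9.83% of all tested genes, with medians of 1.15 and 0.59. Cd24, a small surface glycoprotein, rose from 74 and 79 counts to 1543 and 1534 at D4 and 2067 and 1651 at D7 (log2 fold changes 3.81 and 4.38, adjusted p = 0.000119 and 0.000174 by edgeR). Mki67, also a marker of the cycling cells above, rose by 3.92 and 3.24 on the log2 scale (adjusted p = 0.000409 and 0.00102 by edgeR). Cd44, a hyaluronan receptor, was upregulated at both days (2.02 and 1.69), and Fn1, which encodes fibronectin, at D4 (1.35). Myc (0.56 and 0.11), which is also on the list of let-7 targets, and Ptgs2 were not called.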

How the data were processed

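Total RNA of 6 rat sciatic nerve samples was depleted of ribosomal RNA and sequenced in pairs of reads. Per the labels and methods, the authors mapped reads with HISAT2 2.0.4 to Rnor_6.0 and assembled and counted with StringTie 1.3.0. The deposited counts are whole fragments per gene or lncRNA transcript, not normalized. The deposited FPKM of the genes examined follow the counts, a gene length and the library total, without a TMM factor. The methods name TMM normalization before FPKM were calculated, which these values do not show. Transcript lengths of lncRNAs are the authors' other column, and those of genes were computed from counts and FPKM.

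Counts were tested with edgeR 4.0.16 (R 4.3.3) after filterByExpr and TMM scaling, in 1 quasi-likelihood fit of the 6 libraries, genes and lncRNAs apart, with Benjamini-Hochberg adjustment over 15195 genes or 14077 lncRNAs. Each standard error is the size of the log2 fold change over the root of its F statistic. Scaled levels are CPM with TMM factors. The procedure was tested on simulated data. A gene or lncRNA was taken as kept by injured libraries alone where fewer than 2 control libraries reached the filter level, which is 10 counts at the median library total. Without TMM factors the median log2 fold change of all genes moved from −0.04 to 0.25 at D4 and from 0.01 to 0.31 at D7, so changes are relative to TMM scaling. Alternatives were DESeq2 1.42.0, its size factors, no factors, other count filters, 2-group fits, a replicate block and leaving out each library. Distances used log2 levels with a prior count of 2.

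The genes, lists and rules were chosen with earlier results of these data known. Every one of the 10 genes is named, and of each list the 2 largest rises and falls among called genes and those at 0, and of lncRNAs the 3 called ones with most counts. Interval bounds cover the spread between rats of 1 library each, and p-values rest on 2 rats per group. Coordinates of genes and lncRNAs are Rnor_6.0 and those of promoters GRCr8. A few genes of the lists enter the counts of called genes but are not reported here by name.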

Additional observations from a re-analysis of the deposited data

How the results depend on the processing

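The 2 calls of Hmga1 and the 2 of Igf2bp2 against control held under all alternatives. Of the 7 genes tested, 2 or 3 were called at D4 and 2 at D7 when 1 library was left out. Between the days, 0 of these genes were called by edgeR or under any alternative. With at least 10 counts required in every library, Igf2bp3 could not be tested. For lncRNAs at these loci, 6 calls at D4 became 1 with at least 10 counts and 1 to 4 without 1 library, and 4 calls at D7 became 1 without a filter, 1 with at least 10 counts and 0 to 1 without 1 library. The let-7 targets called at D4 numbered 3 to 5 without 1 library. The fetal and imprinted genes called numbered 2 at D4 and 2 at D7 without normalization factors, and 1 to 2 at each day without 1 library. Deviations of libraries of the same letter had correlations of 0.01, 0.19 and −0.13 across genes, without a common direction. With so few libraries these values cannot exclude a pairing by letter. With the letter as a replicate block, Igf2bp3 at D4 was not called (log2 fold change 1.77). In that fit 2 genes each were called at D4 and D7, and lncRNAs called at D7 became 1. The causes of these changes were not tested beyond the fewer genes or samples in a fit. With 2 rats a group, and 8 counts of Igf2bp3 in control b, changes of low genes near 2-fold could be missed.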
